A study of Mus musculus with 14 samples.

Results

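The genes described here encode the structural proteins of the extracellular matrix: the collagens, the laminin chains, elastin, the fibrillins and the fibulins. They were taken by name, as every protein-coding gene whose mouse symbol is that of a collagen alpha chain, a laminin alpha, beta or gamma chain, Eln, a fibrillin (Fbn) or a fibulin (Fbln). The rule found 62 of the 41381 genes in the expression table: 44 collagens, 11 laminin chains, 1 elastin gene, 2 fibrillins and 4 fibulins. Of these, 47 passed the filter on low values and were tested among 17325 genes. The other 15 reached at most 1.24 TPM (a share of all transcripts after division by transcript length) in any library, the highest being Lama3, a laminin alpha chain, in Het 5.

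The 14 libraries held RNA from cerebellar granule neuron progenitors (GNPs), the dividing precursors of the cerebellar granule neurons, freshly isolated from pups at 7 days of age by percoll gradient, with sexes not separated. The question was how loss of Chd7, a chromatin remodeller, changes transcription in these cells. The 5 WT libraries came from animals with floxed Chd7 (Chd7 f/f) and no Cre, labelled Chd7 wild type or Atoh1-Cre negative. The 5 Het libraries carried Atoh1-Cre with 1 floxed allele (Atoh1-Cre::Chd7 f/+), and the 4 Hom libraries carried Atoh1-Cre with both alleles floxed (Atoh1-Cre::Chd7 f/f). The strain is labelled C56Bl6/J in some libraries and C57BL/6 in the others. Atoh1-Cre is known for its activity in the granule lineage, and no group carried Cre without a floxed allele, so Cre itself and Chd7 loss cannot be told apart. Sequencing was done in 2 batches, batch 1 with WT 1 to 3, Het 1 to 3 and Hom 1 and 2, and batch 2 with the other 6 libraries. The place of Het 3 is in doubt, since the study's methods put it in batch 1 while its title and strain label follow the form of the later libraries. It was fitted in batch 1, with the other placement as an alternative.

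Collagens are rod-like proteins that assemble into fibrils (the fibrillar types), coat those fibrils (the FACIT types) or form sheets (type IV). Laminins are cross-shaped trimers of an alpha, a beta and a gamma chain, and with type IV collagen they make the basement membrane that lies under endothelium and at the brain surface. Elastin is the rubber-like core of elastic fibres, which is laid on a scaffold of fibrillin microfibrils with the help of fibulins and is crosslinked by lysyl oxidases. In the brain most of these proteins are made by vessels and by the meninges, whose basement membrane the outermost GNPs touch.

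Gene-level Chd7 did not follow the labels. The TPM of Chd7 (chromosome 4, 8690406 to 8867659, mm10) was 121 to 272 in WT, 137 to 181 in Het and 126 to 185 in Hom. The Hom minus WT difference in log2(TPM + 1) was -0.11 (SE 0.20, limma adjusted p 0.862), from 0.41 in batch 1 to -0.77 in batch 2. This value counts reads from every exon and so cannot show the loss of a floxed part. By qRT-PCR the study reported less Chd7 transcript in Het and Hom GNPs than in WT. It also reported ablation of the protein in Hom granule cells by antibody staining. Every direction below rests on the labels, and WT, Het and Hom mean the libraries labelled so. Markers of the granule lineage were high throughout: none of 14 was at 0 in any library, and their summed TPM lay between 4120 and 5863. The genes of this list that were called between Hom and WT are given at the end. TPM keeps no sequencing depth, so none can be given for a single value.

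Vascular content varied widely. The summed TPM of 14 endothelial markers (among them Cldn5, a tight junction protein, and Kdr, the VEGF receptor) ran from 37.4 in Het 3 to 736 in Het 2, a 19.7-fold range. In WT it was 52.3, 70.4 and 68.1 in batch 1 and 344 and 214 in batch 2. In Het the values were 240, 736 and 37.4 in batch 1 and 251 and 394 in batch 2. In Hom they were 180 and 550 in batch 1 and 341 and 475 in batch 2. The 3 WT libraries of batch 1 were thus among the 4 lowest of all, and every Hom library of batch 1 lay above them, while WT and Hom overlapped in batch 2. Of the 14 markers, 13 were detected in every library and Ly6c1 was at 0 in 1. The mean log2(TPM + 1) of the list was higher in Hom than in WT by 1.29 (exact permutation within batch, two-sided p 0.0333, smallest possible 0.0167, Benjamini-Hochberg adjusted p 0.55 over 33 tests of lists). Without Hom 2 the difference was 0.75 (exact permutation p 0.0833), and without any other library of WT or Hom it was 1.16 to 1.55 (exact permutation p 0.0333 to 0.111).

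The other 2 lists bearing on matrix varied less. The 12 mural cell markers (pericytes and smooth muscle, with Rgs5 and Pdgfrb) summed to 49.7 to 224 TPM, 4.51-fold, and the 14 meningeal fibroblast markers (with Dcn, Foxc1 and Tbx18) summed to 33.6 to 126 TPM, 3.74-fold. The meningeal sums were 33.6 to 121 in WT, 58.9 to 113 in Het and 41.5 to 126 in Hom. The Hom minus WT difference of the list mean was 0.35 for mural cells (exact permutation p 0.283, adjusted p 0.85) and 0.097 for meninges (exact permutation p 0.733, adjusted p 0.967). Cnn1, a smooth muscle protein, was at 0 in 1 library and Dpep1, a meningeal marker, was at 0 in 9. Astroglial markers (12 genes, none at 0) moved the other way, with 504 to 1993 summed TPM in WT, 680 to 1262 in Het and 415 to 808 in Hom. Their Hom minus WT difference was -0.63 (exact permutation p 0.1, adjusted p 0.55). In such bulk samples, fewer cells of a type and less RNA per cell cannot be told apart.

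**Figure D1:**
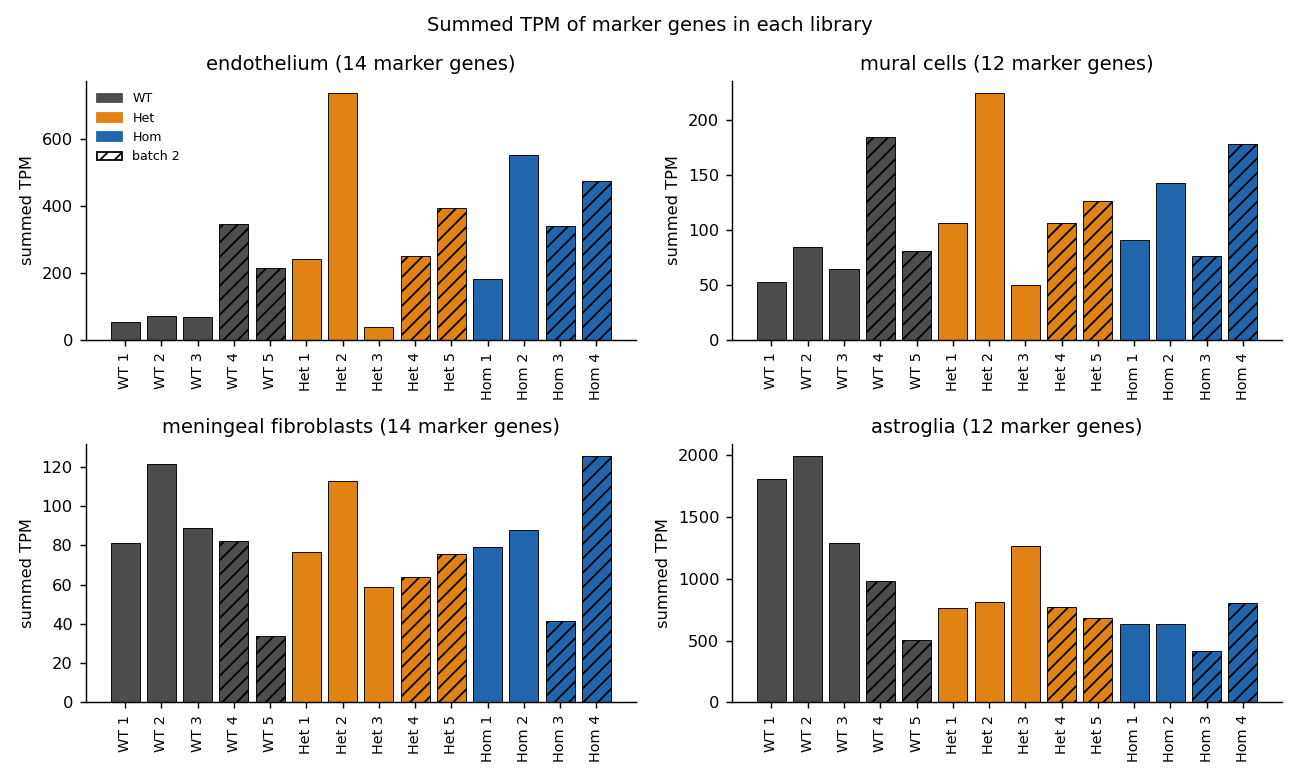
Summed TPM (y axis) of the marker genes of 4 cell types in each of the 14 libraries (x axis), with bars coloured by labelled genotype and batch 2 hatched. Endothelial markers were lowest in WT 1 to 3 and Het 3 and reached 736 in Het 2, while the meningeal sum was highest in Hom 4 (126) and lowest in WT 5 (33.6).

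Between Hom and WT, 4 of the 47 tested members were higher and 1 was lower at an adjusted p under 0.05. Over all 17325 genes tested, 1.27% were called higher and 1.41% lower. The members called higher were Eln, Col28a1, Col27a1 and Col6a3, and the member called lower was Col9a1. In addition, 40 of the 47 differences were above 0, with a median of 0.31 on the log2(TPM + 1) scale, where 55.5% of all genes tested were above 0 with a median of 0.024. At an unadjusted p under 0.05, 13 members were higher and 2 lower, against 8.51% and 6.42% of all genes. The TPM of the 4 Hom and the 5 WT libraries did not overlap for 6 members that were higher (Eln, Col27a1, Col28a1, Col6a3, Col5a1 and Lama1) and 1 that was lower (Col9a1), and over all genes for 2.91% and 1.96%. In batch 1 alone 1 member was called higher (Eln) and 0 lower, where 0.479% and 0.456% of all genes were, and in batch 2 alone 0 were called in either direction, where 0% and 0.0231% were. A Kruskal-Wallis test over the 3 genotypes, the study's kind of test, was run on batch-adjusted values. It gave 5 members higher and 1 lower at an unadjusted p under 0.01, against 2.42% and 2.21% of all genes.

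Col28a1 passed the filter only through its 4 Hom libraries, so it could only be tested as a gene that differs, and its call supports nothing. It is still included in every count of members higher in Hom, above and below. These are the members called, above 0, at an unadjusted p under 0.05, not overlapping, or passing the Kruskal-Wallis test. Col22a1 (Hom minus WT 0.41) reached 1 TPM in 0 WT, 1 Het and 3 Hom libraries. It thus passed the filter mostly through Hom, and counts of higher members that hold it carry a similar limit. The p-values measure the spread between these libraries, since no source used here says which animals each came from.

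The shared start of 2 members, whose levels are set side by side below, and the promoters of the 4 called members with an entry in the promoter table are shown before the values. They are RefSeq windows of build GRCm38.p6, which is mm10. The first is a stretch of 30 bases on the plus strand at chr8:11312801-11312830, in which capitals mark the 22 bases where the 5′ ends of Col4a1 (minus strand) and Col4a2 (plus strand) overlap. Col4a1 and Col4a2 encode the chains of the main type IV collagen, and the genes are read away from each other.
Col4a1 and Col4a2 starts: cggcAGTGCGCGGGCGGCGTCTCCAAgggg

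The others are the 250 bases before the RefSeq start of each of these 4 called members, on the strand of the gene. For Col27a1 this stretch lies inside the gene as annotated by GENCODE, which begins at 63214004. Capitals mark any match, on either strand, to the TATA sequence (TATAAA), the GC-box sequence (GGGCGG) or the E-box core (CANNTG), none of which contains another. They lie at chr4:63215162-63215411 (plus strand), chr6:8192618-8192867 (minus), chr1:90843972-90844221 (minus) and chr1:24177360-24177609 (plus, the first of 2 starts of Col9a1).
Col27a1: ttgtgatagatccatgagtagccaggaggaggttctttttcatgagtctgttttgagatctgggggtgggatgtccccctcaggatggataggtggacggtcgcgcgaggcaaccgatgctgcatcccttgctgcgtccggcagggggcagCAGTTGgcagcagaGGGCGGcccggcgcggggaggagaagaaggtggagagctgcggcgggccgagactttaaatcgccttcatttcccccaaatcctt
Col28a1: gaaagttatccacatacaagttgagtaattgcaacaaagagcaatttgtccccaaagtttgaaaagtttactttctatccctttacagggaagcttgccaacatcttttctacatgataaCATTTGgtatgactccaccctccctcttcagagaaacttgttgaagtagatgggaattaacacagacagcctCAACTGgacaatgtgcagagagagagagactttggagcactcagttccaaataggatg
Col6a3: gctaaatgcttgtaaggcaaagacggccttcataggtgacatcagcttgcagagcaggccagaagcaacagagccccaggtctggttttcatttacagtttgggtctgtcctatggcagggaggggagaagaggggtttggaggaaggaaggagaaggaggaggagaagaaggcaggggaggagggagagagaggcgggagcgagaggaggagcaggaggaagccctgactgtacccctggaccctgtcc
Col9a1: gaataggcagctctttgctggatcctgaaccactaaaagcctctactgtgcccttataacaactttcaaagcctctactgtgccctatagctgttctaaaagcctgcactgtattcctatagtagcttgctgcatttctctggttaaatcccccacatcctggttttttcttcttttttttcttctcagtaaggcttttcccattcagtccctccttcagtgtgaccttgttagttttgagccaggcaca

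The Col27a1 window had a GC content of 61.7%, with 18 CpG sites in its 300 bases, and that of Col28a1 a GC content of 41.7% with 0 CpG sites. Of the 4 stretches of 250 bases, that of Col27a1 held the GC-box sequence, which the shared start of Col4a1 and Col4a2 holds too, and the E-box core, which bHLH factors such as Atoh1 bind, was found in Col27a1 and Col28a1. Over the 51 windows of the 45 members with an entry, 58.8% held the GC-box sequence, 9.80% the TATA sequence and 60.8% the E-box core. Over all 32851 windows these shares were 35.7%, 13.6% and 72.3%. The members' windows had a median GC content of 60.0% and a median of 12 CpG sites, against 52.7% and 7 over all windows. A match is a run of letters and not a bound site.

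Eln, the gene of elastin, was the most abundant member and had the largest difference of the 47 on the log2(TPM + 1) scale, while the ratio of Hom to WT means was larger for Col28a1 (4.56). It lies on the minus strand of chromosome 5, from 134702593 to 134747323 (mm10). In WT its TPM was 97.1, 89.2, 93.0, 99.7 and 119 in libraries 1 to 5. In Het it was 208, 122, 162, 170 and 155. In Hom it was 389, 240, 412 and 278. The 3 genotypes did not overlap: every Het library lay above every WT library, and every Hom library above every Het library. The means were 99.6 ± 11.5 (SD, n = 5), 164 ± 30.7 (n = 5) and 330 ± 83.7 TPM (n = 4), a Hom to WT ratio of 3.31.

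The Hom minus WT difference of Eln was 1.68 on the log2(TPM + 1) scale (SE 0.17, limma adjusted p 1.04e-04). It was 1.70 in batch 1 alone (adjusted p 0.0272) and 1.63 in batch 2 alone (adjusted p 0.0682), and the interaction with batch was -0.076 (unadjusted p 0.834). Leaving out any 1 library gave 1.54 to 1.82, with an adjusted p of at most 6.57e-04. The Het minus WT difference was 0.70 (adjusted p 0.284), which did not pass the test even though the libraries did not overlap. Such separation was seen upward in 0.462% of all genes in that comparison. Hom exceeded Het by 0.98 (adjusted p 0.0226), a call that was lost without Het 2, Het 4, Het 5, Hom 1 or Hom 3 (0.85 to 0.98, adjusted p 0.0566 to 0.106). Those 3 differences share libraries with each other. The antisense gene Gm30003 (134747042 to 134822967, plus strand) overlaps the 5′ end of Eln by 282 bases, and RSEM was run with default parameters, which do not use strand, so reads of the pair cannot be told apart there.

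No correlation of Eln with the vascular or meningeal lists passed the test. Across the 14 libraries its log2(TPM + 1) had r = 0.37 with the endothelial level (rho 0.39, permutation p 0.191 and 0.170, adjusted p 0.250 and 0.186 over 24 pairs) and r = -0.15 with the meningeal level (rho -0.24, permutation p 0.614 and 0.401, adjusted p 0.614 and 0.419). After genotype and batch means were taken out, r was -0.48 and -0.67. Within batches r with the endothelial level was 0.40 (8 libraries) and 0.29 (6 libraries), and without the 2 libraries farthest from the median, WT 1 and Het 3, it was 0.33. Het 2, with the most endothelial RNA, had the least Eln among Het libraries. With endothelial and meningeal levels as covariates the Hom minus WT difference of Eln was 1.81 (SE 0.15, adjusted p 1.30e-04), and with the astroglial level it was 1.48 (adjusted p 0.00244).

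The fibrillins and fibulins did not pass the test. Fbn1 and Fbn2, which form the microfibrils, lay between 2.0 and 5.96 TPM, with Hom minus WT differences of 0.43 (adjusted p 0.285) and 0.31 (adjusted p 0.50). The 4 fibulins with an Fbln symbol were all above 0, from 0.22 to 0.64. Efemp2, a fibulin whose symbol falls outside the rule, was below 0 (-0.46, adjusted p 0.246) and is given with the elastic fibre partners. Fbln1 had 12.7, 18.3, 15.5, 17.4 and 17.2 TPM in WT and 23.0, 18.0, 29.0 and 36.6 TPM in Hom, a difference of 0.61 (adjusted p 0.0671), and the groups overlapped at Hom 2. Fbln5, which guides elastin onto microfibrils, differed by 0.32 (adjusted p 0.640), and by -0.037 with both covariates. Fbln1 and Fbln5 were named after their values were seen, as were the other members below that fall outside the naming rule given with the processing.

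**Figure D2:**
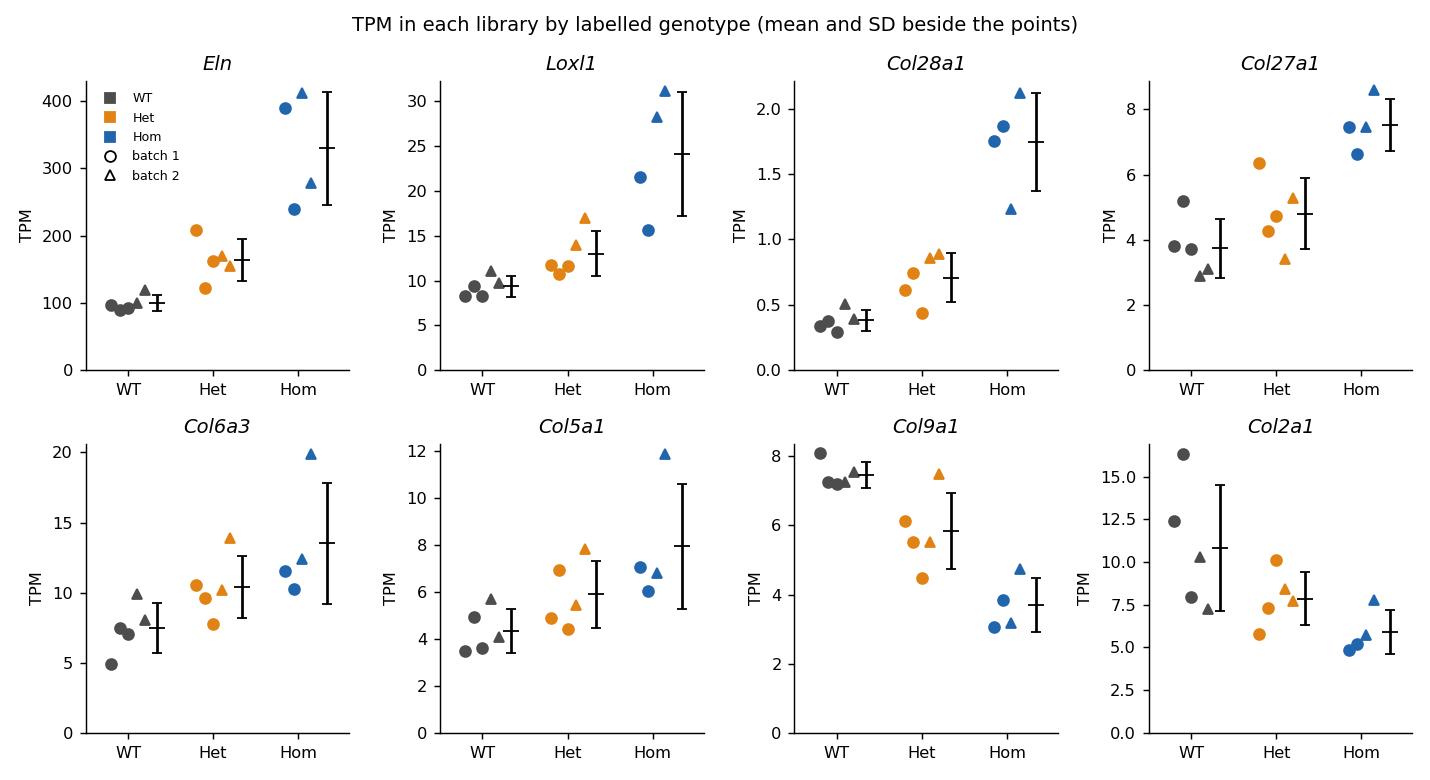
TPM (y axis, from 0) of the 5 called members, of Col5a1 and Col2a1 and of the crosslinking enzyme gene Loxl1 in each library, by labelled genotype (x axis), with circles for batch 1, triangles for batch 2 and the mean with its SD to the right of each group. Eln lies between 89.2 and 119 in WT and between 240 and 412 in Hom, and Col9a1 between 7.20 and 8.10 in WT and between 3.05 and 4.74 in Hom.

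Among the fibrillar collagens, Col27a1 rose. It encodes a fibrillar chain known from cartilage and lies on chromosome 4, from 63214004 to 63334991 on the plus strand. Its TPM was 3.80, 5.20, 3.72, 2.88 and 3.11 in WT and 6.34, 4.27, 4.72, 3.42 and 5.27 in Het. In Hom it was 7.46, 6.63, 7.45 and 8.58, above every WT and every Het library. Hom exceeded WT by 0.88 (SE 0.16, adjusted p 0.010), with 0.63 in batch 1 (adjusted p 0.237) and 1.17 in batch 2 (adjusted p 0.193). With both covariates it was 0.97 (adjusted p 0.0132).

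Col5a1, the chain of type V collagen that sets fibril diameter, did not pass the test at 0.69 (SE 0.18, adjusted p 0.0678). Its Hom libraries held 7.08, 6.03, 6.81 and 11.9 TPM and lay above all 5 WT libraries (3.49, 4.94, 3.60, 5.69 and 4.07 TPM). With both covariates its difference was 0.59 (SE 0.12) and passed, at an adjusted p of 0.0280. Col2a1, the cartilage fibril collagen also made by neural progenitors and glia, had 12.4, 16.3, 7.94, 10.3 and 7.23 TPM in WT. In Hom it had 4.84, 5.23, 5.76 and 7.78 TPM, overlapping WT at Hom 4, and the difference of -0.74 (SE 0.22) had an adjusted p of 0.109. Col2a1 followed the astroglial level, with r = 0.85 over the 14 libraries and 0.90 after genotype and batch means were taken out. With that level as a covariate the difference was -0.23 (adjusted p 0.528). Col11a1, its partner in the same fibrils, was steadier, at 29.9 to 37.1 TPM in WT and 36.5 to 42.2 TPM in Hom, a difference of 0.25 (SE 0.070, adjusted p 0.0887).

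Col9a1 was the member that fell. It encodes a chain of type IX collagen, a FACIT collagen that decorates type II fibrils, and lies on chromosome 1, from 24177610 to 24252684 on the plus strand. In WT its TPM was 8.10, 7.26, 7.20, 7.25 and 7.53, within a narrow band. In Het it was 6.12, 5.52, 4.48, 5.52 and 7.49, with 4 of the 5 libraries below WT. In Hom it was 3.05, 3.83, 3.18 and 4.74, below every WT library. Between Hom and WT the difference was -0.87 (SE 0.14, adjusted p 0.00351), a ratio of means of 0.495, and -0.94 (adjusted p 0.00434) with both covariates. It was -0.94 in batch 1 (adjusted p 0.0632) and -0.78 in batch 2 (adjusted p 0.247).

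Neither of the other chains of type IX collagen passed the test. Col9a3 was the second most abundant member at 82.6, 109, 88.2, 90.04 and 88.6 TPM in WT and 107, 99.4, 145 and 128 TPM in Hom. Its difference was 0.36 (SE 0.099, adjusted p 0.0781), and without WT 2, the highest WT library, it was 0.44 and passed (adjusted p 0.0119). Leaving out Hom 3 gave 0.29 (adjusted p 0.185). The Col9a3 difference was 0.16 in batch 1 (adjusted p 0.592) and 0.61 in batch 2 (adjusted p 0.133), with an interaction p of 0.0196 unadjusted and 0.210 adjusted, where 17.2% of all genes had an unadjusted interaction p under 0.05. Col9a2 differed by -0.096 (adjusted p 0.821), with 12.2 TPM on average in Hom and 12.5 in WT. The levels of Col9a1 and Col9a3 thus differed in opposite directions between the group means, and no test was made of the difference between these genes.

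Type VI collagen forms beaded filaments around cells from Col6a1, Col6a2 and a longer chain such as Col6a3. Col6a3 lies on chromosome 1, from 90765923 to 90843971 on the minus strand, and had 4.94, 7.48, 7.06, 9.91 and 8.06 TPM in WT. It had 10.6, 9.64, 7.80, 10.2 and 13.9 TPM in Het and 11.5, 10.3, 12.4 and 19.9 TPM in Hom, with Hom above all WT libraries. Hom exceeded WT by 0.72 (SE 0.16, adjusted p 0.0292), and it was 0.64 with both covariates (adjusted p 0.0377). This call was the weakest of the 5. Leaving out any of 6 libraries ended it (3 of WT, numbers 1, 3 and 5, and 3 of Hom, numbers 1, 2 and 4, with adjusted p from 0.0519 to 0.0927), as did the endothelial level alone as a covariate (0.61, adjusted p 0.108). The Col6a3 call was also lost without the batch term (adjusted p 0.0925), with only the WT and Hom libraries fitted (adjusted p 0.0829), with Het 3 placed in batch 2 (adjusted p 0.0648) and with a looser filter on low values (adjusted p 0.0501). Col6a1 and Col6a2, which lie 85161 bases apart on chromosome 10, differed by 0.24 (adjusted p 0.774) and 0.23 (adjusted p 0.765).

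Col28a1, which encodes a collagen known from peripheral nerve, was the least abundant tested member. On chromosome 6, from 7997808 to 8192617 on the minus strand, it had 0.34, 0.38, 0.29, 0.51 and 0.39 TPM in WT and 0.61, 0.74, 0.44, 0.86 and 0.89 in Het. In Hom it had 1.75, 1.87, 1.23 and 2.12 TPM, above all other libraries. The difference in log2(TPM + 1) was 0.97 (SE 0.15, adjusted p 0.00352), which understates the ratio of means of 4.56 at such low levels. With both covariates it was 0.88 (adjusted p 0.0151). Since Col28a1 passed the filter only through its Hom libraries, neither p-value is evidence of a difference.

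The chains of the vascular basement membrane varied widely between libraries of the same genotype. Col4a1 had 22.0, 35.4, 24.2, 89.2 and 42.7 TPM in WT. It had 58.8, 130, 23.8, 52.9 and 72.8 TPM in Het and 51.7, 91.0, 54.9 and 103 TPM in Hom. The highest value was in Het 2 and the lowest in WT 1, and WT 4 lay above Hom 1 and Hom 3, so the genotypes overlapped. The Hom minus WT difference was 0.88 (SE 0.43, adjusted p 0.369), with 1.33 in batch 1 and 0.28 in batch 2. Col4a2 differed by 0.87 (SE 0.46, adjusted p 0.406). The laminin chains Lamb1, Lamc1 and Lama4, which make up a laminin of endothelium, differed by 0.65 (adjusted p 0.306), 0.50 (adjusted p 0.355) and 0.92 (adjusted p 0.352).

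These genes followed the endothelial and mural markers. The correlation of Col4a1 with the endothelial level was r = 0.96 (rho 0.96, permutation p 1e-05 for both, the smallest 100000 resamples give, adjusted p 5e-05 and 6e-05). Without WT 1 and Het 3 it was 0.94, and within batches it was 0.98 (8 libraries, exact permutation p 1.7e-04) and 0.92 (6 libraries, exact permutation p 0.0111). For Col4a2 r was 0.97 and for Lamc1 0.91, and with the mural level the 3 genes had r = 0.97, 0.98 and 0.93. With the meningeal level they had r = 0.37, 0.35 and 0.43 over the 14 libraries and 0.41, 0.41 and 0.44 in batch 1. In batch 2 the meningeal values were 0.94, 0.93 and 0.88, beside 0.92, 0.90 and 0.94 with the endothelial level. Batch 2 alone thus did not separate these 2 lists. As a description, Lama4 had r = 0.98 and Lamb1 0.96 with the endothelial level over the 14 libraries, and 0.98 and 0.95 after genotype and batch means were taken out. Lama5, another laminin alpha chain, followed that level less closely, at 0.54 and 0.32. Col4a1 and Col4a2, whose starts overlap in the sequence above, had a ratio of TPM between 1.36 and 1.73 in all 14 libraries while Col4a1 itself ran from 22.0 to 130 TPM.

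With the endothelial level as a covariate the Hom minus WT differences were 0.0076 for Col4a1, -0.063 for Col4a2, 0.0055 for Lama4, 0.076 for Lamb1 and 0.060 for Lamc1. None passed, with adjusted p from 0.808 to 0.989. With the mural level in its place, an alternative added after seeing the data, Col4a1 and Col4a2 passed at 0.39 (adjusted p 0.0149) and 0.35 (adjusted p 0.0212), 2 of 6 members called higher with 1 lower, where 1.53% and 1.59% of all genes were called. The outcome for this pair therefore depends on which vascular list is used.

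**Figure D3:**
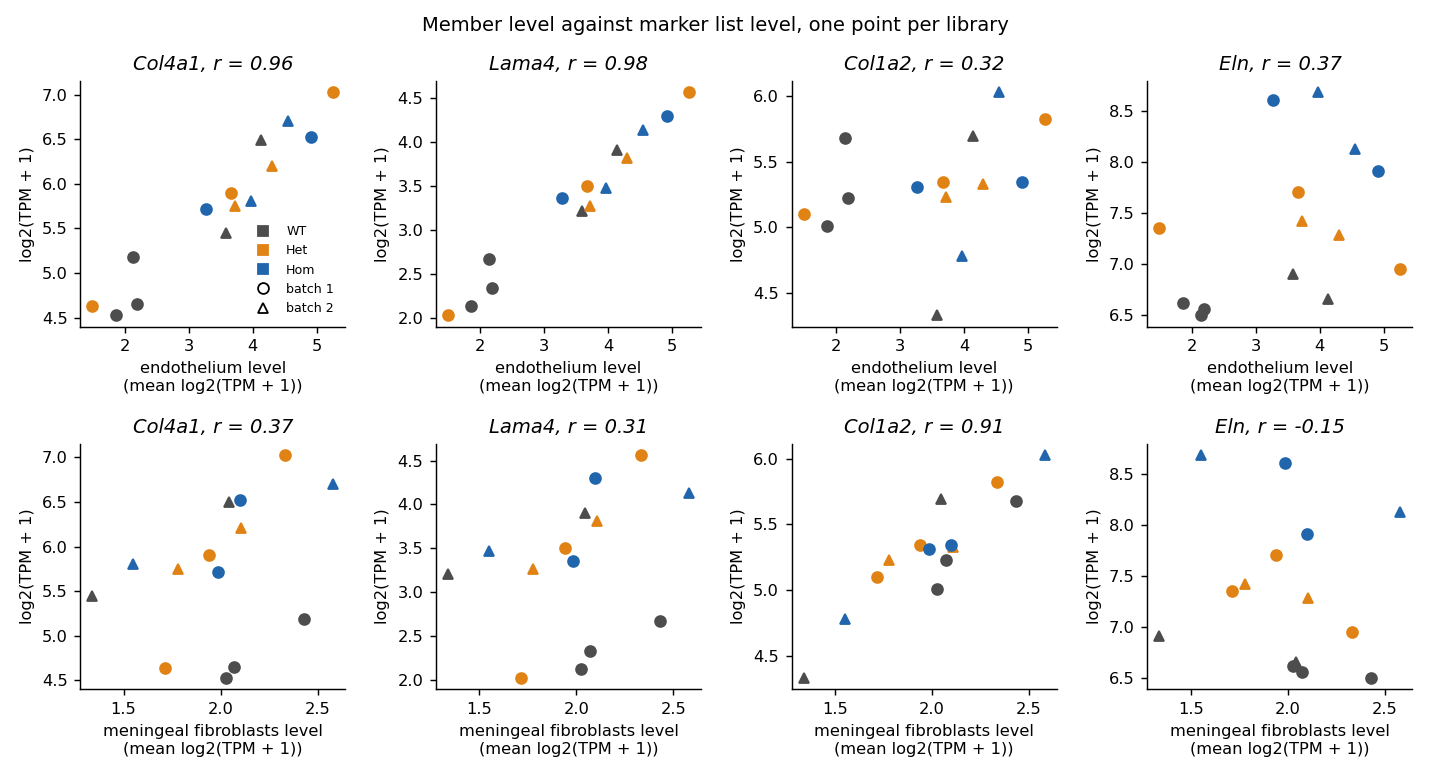
Level of 4 members (y axes, log2(TPM + 1)) against the mean log2(TPM + 1) of the endothelial (top) and meningeal fibroblast (bottom) marker genes in each library (x axes), with colour for genotype and circles and triangles for batches 1 and 2. Col4a1 and Lama4 rise with the endothelial level (r = 0.96 and 0.98), Col1a2 with the meningeal level (r = 0.91), while Eln has r = 0.37 and -0.15.

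Lama1 is the laminin alpha chain of the pial basement membrane. Its TPM was 2.86, 4.78, 2.76, 5.27 and 3.71 in WT and 5.58, 7.89, 5.74 and 8.98 in Hom, which did not overlap. The difference was 0.72 (SE 0.24, adjusted p 0.154), and with the endothelial level as a covariate it was 0.33 (adjusted p 0.371). Lama1 followed the endothelial level (r = 0.83, permutation p 3.1e-04, adjusted p 6.8e-04; rho 0.77, permutation p 0.00189, adjusted p 0.00525), with r = 0.92 in batch 1 and 0.81 in batch 2. The whole laminin group of 8 tested chains lay above 0, from 0.19 (Lama2) to 0.92 (Lama4). No chain of it passed the test.

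Col3a1, Col1a1 and Col1a2, fibrillar collagens made by fibroblasts of the meninges and elsewhere, did not pass the test. Col3a1 had 66.8, 96.3, 72.3, 111 and 46.8 TPM in WT and 84.3, 105, 49.6 and 134 TPM in Hom, a difference of 0.23 (SE 0.29, adjusted p 0.773). Col1a2 had 31.2, 50.3, 36.4, 50.9 and 19.1 TPM in WT and 38.7, 39.6, 26.5 and 64.4 TPM in Hom, a difference of 0.19 (SE 0.29, adjusted p 0.826). For Col1a1, the partner chain of Col1a2 in type I collagen, the difference was 0.22 (SE 0.28, adjusted p 0.783). The lowest WT library was WT 5 for all 3 and the highest Hom library Hom 4, which were also the lowest and highest libraries in summed meningeal markers.

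The correlations with the meningeal level were r = 0.91 for Col1a2 (rho 0.79, permutation p 4e-05 and 0.00136, adjusted p 1.4e-04 and 0.00466) and 0.86 for Col1a1 (rho 0.77, permutation p 1.4e-04 and 0.00197, adjusted p 4.2e-04 and 0.00525). Col3a1 had r = 0.84 (rho 0.71, permutation p 2.8e-04 and 0.00552, adjusted p 6.8e-04 and 0.0113). Without WT 5 and Hom 4, the 2 libraries farthest from the median, these were 0.81, 0.66 and 0.71. Within batch 1 they were 0.81, 0.78 and 0.63 and within batch 2 0.95, 0.94 and 0.92. With the mural level the same 3 genes had r = 0.54, 0.56 and 0.64 over the 14 libraries. Within batch 1 the mural values were 0.76, 0.65 and 0.94, and within batch 2 0.89, 0.87 and 0.91. In batch 1 Col3a1 thus followed the mural level, and the endothelial level (r = 0.86), more closely than the meningeal level. After genotype and batch means were taken out, 18 of the 47 tested members had r of at least 0.8 with the meningeal level. On the same measure 6 reached it with the endothelial level and 12 with the mural level. Counting each once, 27 of 47 did so with at least 1 of these 3 lists, which share libraries and are themselves related.

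None of the remaining abundant members passed the test. Col18a1, a basement membrane collagen whose fragment is endostatin, had 40.5 to 63.1 TPM in WT and 44.2 to 62.3 TPM in Hom, a difference of 0.076 (SE 0.12, adjusted p 0.830). Col26a1 had 14.97 to 28.2 TPM in WT and 19.3 to 29.1 TPM in Hom, a difference of 0.22 (SE 0.18, adjusted p 0.639). Col4a5 and Col4a6, which encode the type IV chains of the meningeal and other basement membranes, lie 1308 bases apart on chromosome X and kept a ratio of 2.54 to 3.28. They differed by 0.055 (adjusted p 0.946) and 0.11 (adjusted p 0.887). Col23a1, a transmembrane collagen, was among the 7 members below 0 (-0.35, adjusted p 0.568).

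Adding the endothelial and meningeal levels as covariates together moved the median difference of the 47 members from 0.31 to 0.086, with 34 of 47 above 0. Of the 40 that were above 0 without covariates, 32 were above 0 with both. With the endothelial level alone the median was 0.034 with 28 above 0, and 3 members were called higher and 1 lower (1.13% and 1.34% of all genes). With the meningeal level alone it was 0.25 with 39 above 0, and with the astroglial level alone it was 0.54 with 44 above 0. For comparison, the median over all genes was 0.0076 with both levels. In the fit with both levels 5 members were called higher and 1 lower (Eln, Col27a1, Col28a1, Col6a3 and Col5a1, and Col9a1), where 1.43% and 1.76% of all genes were called. With the astroglial level the called members were Eln, Col27a1 and Col28a1 higher and Col9a1 lower, and 0.687% and 0.883% of all genes were called. With the choroid plexus level the 5 calls of the fit without covariates were all kept, where 1.32% and 1.47% of all genes were called. All these counts of members called higher include Col28a1, which passed the filter only through Hom. The median of the type IV collagens went from 0.49 to -0.028 and that of the laminin alpha chains from 0.60 to 0.16 with both levels, while that of the fibulins went from 0.47 to 0.39.

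**Figure D4:**
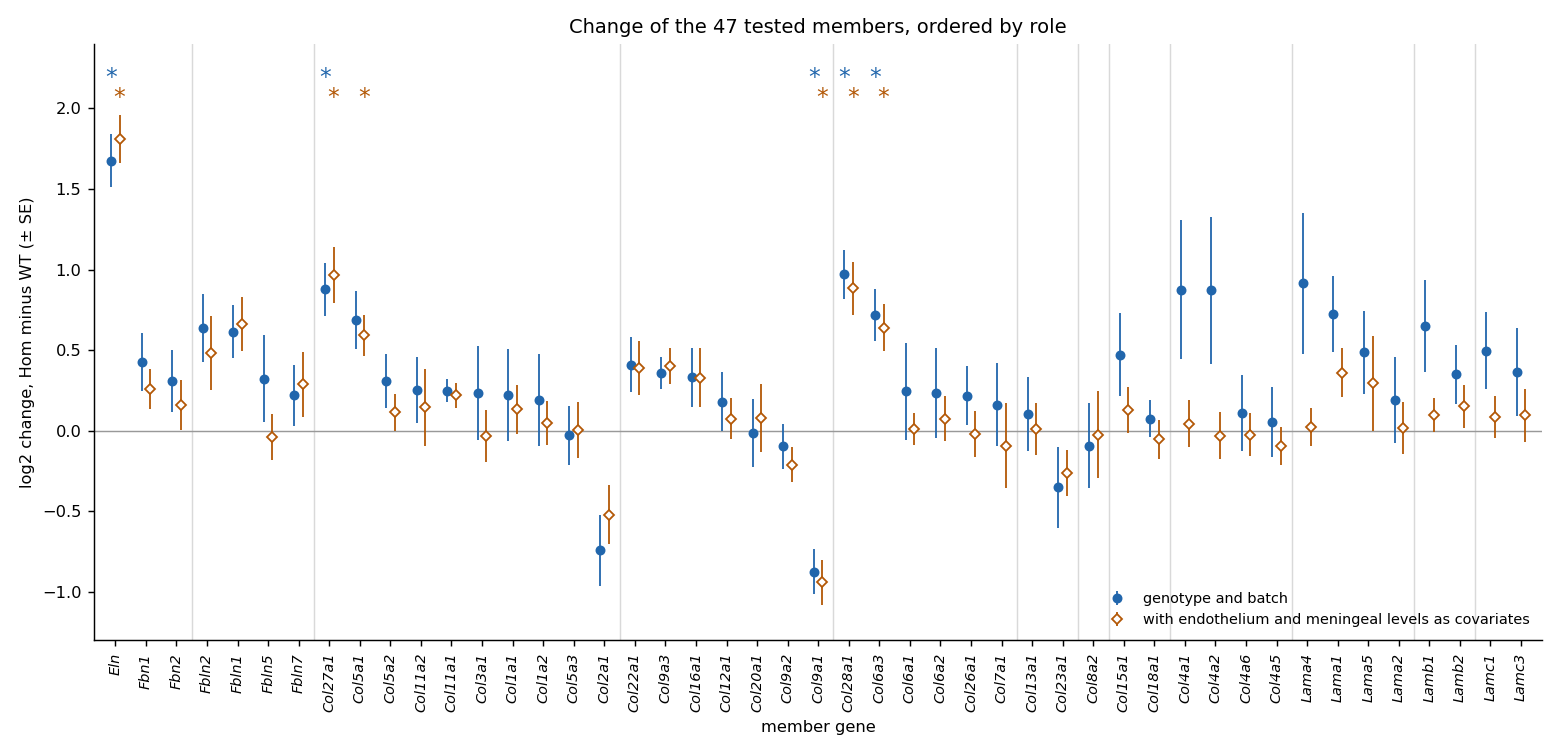
Hom minus WT difference in log2(TPM + 1) with its SE (y axis) for the 47 tested members (x axis), grouped by role, from the fit with genotype and batch (filled circles) and from the fit with endothelial and meningeal levels added (open diamonds). Asterisks mark an adjusted p under 0.05 in each fit. Eln stays at 1.68 and 1.81, while Col4a1 goes from 0.88 to 0.045 and Lama4 from 0.92 to 0.024.

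In Het against WT, none of the 47 members was called by limma. Over all genes 0.00577% were called higher and 0% lower. At an unadjusted p under 0.05, 6 members were higher and 1 lower, where 3.20% and 2.88% of all genes were, and 36 of 47 differences were above 0 with a median of 0.16. For the called members, the Het minus WT differences stood beside the Hom minus WT ones as 0.70 and 1.68 for Eln, 0.29 and 0.88 for Col27a1, 0.43 and 0.72 for Col6a3, 0.30 and 0.97 for Col28a1 and -0.32 and -0.87 for Col9a1. Both comparisons use the same 5 WT libraries. In Hom against Het only Eln was called, where 0.150% of all genes were called higher and 0.277% lower. Hom libraries did not overlap Het libraries for Eln, Col27a1, Col28a1 and Col11a1, all higher, against 1.11% of all genes.

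The genes that act on these proteins were read from the same fit. Of 30 genes for collagen synthesis and crosslinking, 29 were tested, 2 were higher and 1 lower in Hom than in WT, with a median of 0.19. For this and the lists that follow, the shares of all genes are the 1.27% called higher and 1.41% called lower given above, and 8.51% and 6.42% at an unadjusted p under 0.05. Loxl1, the lysyl oxidase that crosslinks elastin, had 8.30, 9.35, 8.27, 11.1 and 9.67 TPM in WT and 11.7, 10.7, 11.6, 14.01 and 17.0 TPM in Het. In Hom it had 21.6, 15.6, 28.2 and 31.1 TPM, above every WT library, with Hom 2 below Het 5. The Hom minus WT difference of Loxl1 was 1.201 (SE 0.12, adjusted p 9.23e-05), and it was 1.32 with both covariates (adjusted p 1.08e-04). Hom exceeded Het by 0.77 (adjusted p 0.0109), a call that was lost without Hom 1 (adjusted p 0.0644).

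Adamts14, which trims the amino end of procollagen, had 4.06 to 6.85 TPM in WT and 11.5 to 13.5 TPM in Hom, a rise of 1.13 (SE 0.15, adjusted p 7.67e-04). Ppib, a folding enzyme of collagen, fell by 0.31 (adjusted p 0.0170), from 902 ± 86.6 (SD, n = 5) to 732 ± 52.9 TPM (n = 4). Ppib was not called with both covariates (-0.30, adjusted p 0.0557), nor without Hom 1 or Hom 2 (adjusted p 0.0544 and 0.0567). Lox, the related crosslinking enzyme, was at 0.61 to 2.50 TPM in WT and 0.85 to 2.99 TPM in Hom (0.27, adjusted p 0.695).

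Among 16 tested partners of elastic fibres and microfibrils none passed, in either direction, with 4 higher and 1 lower at an unadjusted p under 0.05. Mfap4, a microfibril protein at 475 to 978 TPM over the 14 libraries, differed by -0.11 (adjusted p 0.763), and its sign was not stable, with -0.41 in batch 1, 0.22 in batch 2, 0.090 with both covariates and -0.23 to 0.053 when 1 library was left out. The lower of these was Efemp2, a fibulin needed for elastic fibre assembly, at -0.46 (adjusted p 0.246). Among 12 tested basement membrane partners none passed either, with 1 higher and 1 lower at an unadjusted p under 0.05.

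Of 14 tested collagen and laminin receptors 1 was higher. It was Ddr2, a receptor kinase for fibrillar collagen, at 15.4 ± 1.74 TPM in WT and 22.7 ± 2.42 TPM in Hom (0.56, SE 0.11, adjusted p 0.0133), and with both covariates it stood at 0.46 (adjusted p 0.05004). The Ddr2 call was lost without Hom 4 (adjusted p 0.0518). Of 17 proteases and inhibitors 1 was higher, Mmp17, a membrane-anchored matrix metalloproteinase, at 6.51 ± 1.08 and 13.1 ± 4.14 TPM (0.83, SE 0.16, adjusted p 0.0152; 0.73 with both covariates, adjusted p 0.0705). The Mmp17 call was lost without Hom 2 (adjusted p 0.0600).

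No nearest tested neighbour of a called member on its chromosome was called. Limk1 and Mettl27, on either side of Eln, differed by -0.20 (adjusted p 0.234) and 0.14 (adjusted p 0.604). Akna, 32134 bases from Col27a1, differed by 0.60 (adjusted p 0.0648), and Zfp618 on the other side by -0.072 (adjusted p 0.867). The neighbours of Col28a1 (C1galt1 and Mios), of Col6a3 (Cops8 and Mlph) and of Col9a1 (Fam135a and Gm28439) had adjusted p from 0.267 to 0.948.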

How the data were processed

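RNA of GNPs was sequenced (TruSeq Total RNA, Illumina HiSeq, single-end), and the authors estimated TPM per Ensembl gene with RSEM 1.2.15 and Bowtie 1.0.0 on the mm10 transcriptome. The deposited table holds TPM for 14 libraries, scaled to the same sum in each, so sequencing depth is lost and no counting interval can be given. Library and batch came from the labels and the study's methods. Ensembl IDs were given symbols and positions from GENCODE M21 (40254 IDs). The 17325 genes that reached 1 TPM in 4 or more libraries were fitted as log2(TPM + 1) with limma 3.58.1 (R 4.3.3; lmFit, eBayes with trend), with genotype and batch as terms and all 14 libraries sharing 1 estimate of spread. Two-sided p-values were adjusted by Benjamini-Hochberg over all genes tested and called under 0.05. The pseudocount of 1 understates changes of low genes. The study's kind of test, Kruskal-Wallis after batch adjustment, was kept as an alternative. Batch was removed here with limma while genotype was kept in the model, where the study used ComBat. Its p-values came from all arrangements of the labels across batches, and they are approximate because the values had been adjusted. Marker lists were compared by exact permutation of genotype within batch, and correlations by permutation with 100000 resamples (SciPy 1.17.1; exact within batches). Covariates were the mean log2(TPM + 1) of a marker list. Scripts were tested on simulated data.

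The text names Chd7, every called member, the 12 most abundant members, Eln, Col1a1, Col1a2, Col3a1, Col4a1, Col4a2, Lama1 and Lamc1, the largest rises and falls at an unadjusted p under 0.05, called genes of the other lists (up to 3 each) and the neighbours of called members. Members outside this rule, Fbln1 and Fbln5 among them, were named after their values were seen. The members and lists were chosen with earlier results of these data known. Marker lists for 11 cell types were scored, and those without bearing on matrix are given at the end. Alternatives covered the pseudocount, filter, scaling, batch, covariates, array weights, the test and each library in turn. The symbols Adamtsl6 and Gpr56 (an older name of Adgrg1) were not found in the table.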

Additional observations from a re-analysis of the deposited data

Results flagged for a closer look

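4 of the values named above had 1 library standing far from the rest of its group of 5, by a gap to the nearest library that exceeded 0.71 of the group's range (Dixon's critical value). Chance flags about 1 group in 20. Col9a3 was 109.34 TPM in WT 2, where the next WT library had 90.04. In Het 2, which also held the most endothelial and mural marker RNA, Col3a1 was 135.75 TPM (next 89.45), Col1a2 was 55.73 TPM (next 39.67) and Col26a1 was 30.02 TPM (next 20.21). The part of vascular and meningeal content in these values was not tested.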

How the results depend on the processing

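For Hom against WT, 4 members higher and 1 lower became 1 and 0 in batch 1 alone (0.479% and 0.456% of all genes). They became 0 and 0 in batch 2 alone (0% and 0.0231%), and fewer libraries were fitted in each batch. With TPM above 0 in at least 4 libraries they were 3 and 1 (0.809% and 0.797%). With only the 2 genotypes compared they were also 3 and 1 (0.785% and 0.71%). Quantile normalization gave 5 and 1 (1.45% and 1.78%). For Hom against Het, the 1 member higher became 2 with TPM above 0 in at least 4 libraries (0.0817% of all genes). The count became 0 with only the 2 genotypes compared (0.0866%), in batch 1 alone (0.0231%) and in batch 2 alone (0%). It was 0 to 1 when a library was left out (0 without Het 2, Het 4, Het 5, Hom 1 or Hom 3). Quantile normalization called 1 member higher (0.202% of all genes) and 1 member lower (0.387%). Every alternative run kept the direction of the 5 called members between Hom and WT, where Col28a1 carries the filter limit given above. Differences near 0 changed sign. With endothelial and meningeal levels, with the endothelial level alone and with the mural level alone these were -0.033, -0.11 and -0.021 for Col3a1 and -0.053, -0.060 and -0.013 for Col18a1 (-0.047 in batch 2). With the first 2 of these they were -0.032 and -0.063 for Col4a2 and -0.023 and -0.048 for Col26a1, and with the last 2 they were -0.042 and -0.014 for Col1a2. Leaving out 1 library gave -0.011 to 0.48 for Col3a1, -0.064 to 0.37 for Col1a2 and -0.043 to 0.41 for Col1a1. List differences then ran from 0.75 to 1.55 (endothelium, Hom vs WT), 0.35 to 1.38 (endothelium, Het vs WT), -0.061 to 0.88 (endothelium, Hom vs Het), -0.0076 to 0.49 (mural, Het vs WT), -0.12 to 0.33 (mural, Hom vs Het), -0.14 to 0.23 (meninges, Hom vs WT), -0.16 to 0.092 (meninges, Het vs WT) and -0.11 to 0.26 (meninges, Hom vs Het). The cause of these changes was not tested. Same-numbered libraries correlated at -0.12 to 0.34 (9 of 13 over 0.1), so the numbers were not taken as pairs. With the replicate number as a block, 4 members were higher and 1 lower in Hom than in WT (1.29% and 0.964% of all genes), 0 and 0 in Het than in WT (0% and 0%), and 1 and 0 in Hom than in Het (0.214% and 0.190%). The Kruskal-Wallis test on batch-adjusted values gave 5 higher and 1 lower at an unadjusted p under 0.01, where 2.42% and 2.21% of all genes did so. TPM gives no depth, so how far depth limits low members such as Col28a1 is unknown.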

Other observations

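The 9 choroid plexus markers summed to 77.3 to 588 TPM in WT and 134 to 185 TPM in Hom (list difference 0.087, exact permutation p 0.85, adjusted p 0.967). Otx2 alone ran from 61.6 to 144 TPM over the 14 libraries. Of the 6 tested, 2 were called higher in Hom, Clic6 by 1.95 (limma adjusted p 2.36e-05) and Otx2 by 0.66 (adjusted p 0.0206), where 1.27% of all genes were. These were the only 2 above 0, and the median difference of the 6 was -0.17. The Otx2 call was lost without Hom 1, Hom 4, WT 3 or WT 4 (adjusted p 0.0526 to 0.0702), with endothelial and meningeal levels as covariates (adjusted p 0.0750) and with the astroglial level (adjusted p 0.150). Haemoglobin and other red blood cell markers had 296 to 715 summed TPM in WT and 188 to 351 TPM in Hom (list difference -0.56, exact permutation p 0.05, adjusted p 0.55). Purkinje cell markers differed by -0.48 (exact permutation p 0.1, adjusted p 0.55), inhibitory interneuron markers by 0.13 (adjusted p 0.967), oligodendroglial markers by 0.26 (adjusted p 0.967), microglial markers by 0.13 (adjusted p 0.967) and granule lineage markers by -0.026 (adjusted p 0.967). Of the 14 granule lineage markers, 1 was called higher in Hom and 2 lower, where 1.27% and 1.41% of all genes were. Ccnd1 differed by 0.80 (limma adjusted p 1.11e-04), Reln by -0.99 (adjusted p 6.26e-04) and Neurod1 by -0.55 (adjusted p 0.0116). Lhx1, on both the Purkinje cell and the interneuron list, was called lower (-0.45, adjusted p 0.0408).

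Col4a3 and Col4a4, the type IV chains of the kidney filter, share a start region with 71 bases between them and were at most 0.71 and 0.62 TPM in any library. Their ratio ran from 0.148 to 2.71.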
